A study of Homo sapiens with 3 samples.

Results

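The kinesin motor genes were followed in RNA-seq of 293T, an established line derived from human embryonic kidney. Members were all gene names made of KIF, a number and an optional letter, which gave 39 of the 23284 names listed in each library. Every library came from cells with dCas9-VP64, a nuclease-dead Cas9 that carries the VP64 transcriptional activator to guide targets. The cells also received a parental guide vector (mock), sgL1ASP #1 or sgL1ASP #3, guides aimed at the antisense promoter of the L1 retrotransposon. Each condition is a single library, and differences between conditions are therefore given without a replicate check or a p-value. The deposited values are FPKM, fragment counts scaled by exon length and by sequencing depth, so levels of different genes within a library can be compared.

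Kinesins are motor proteins that use ATP to move along microtubules or to take microtubule ends apart. Mitotic kinesins build the spindle, move and align chromosomes and complete cytokinesis, and their genes are known to be transcribed mainly in G2 and mitosis. Transport kinesins carry vesicles, mitochondria and other cargo along microtubules in dividing and resting cells. Of the 39 members, 13 were counted as mitotic and 13 as transport. The remaining 13, called other kinesins, include genes that act in cilia, in signalling or in more than one of these roles.

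The libraries held an estimated number of reads, in units of 1000000, of 10.4 (mock), 10.2 (sgL1ASP #1) and 8.7 (sgL1ASP #3). Intervals given below cover counting error at these depths and not the variation between cultures. Of 7 genes known from this line, 6 had FPKM of at least 1 throughout, with VIM, a filament protein gene, at FPKM 807, 904 and 862 in mock, sgL1ASP #1 and sgL1ASP #3, while PAX2, a kidney developmental gene, stayed between 0.52 and 0.66. Among 10 markers of other tissues, the blood genes PTPRC and HBB and the fibroblast gene COL1A2 were listed at 0 in all libraries. The neuronal splicing factor gene RBFOX3 was the highest of these 10 markers, at FPKM 5.24, 4.88 and 4.31, and their summed FPKM was between 10.1 and 11.9. COL1A1 and SYT1 were the other markers that stayed at or above FPKM 1. The muscle actin gene ACTA1 had FPKM 2.08, 0.98 and 1.43, with a log2 change of -1.02 from mock to sgL1ASP #1. The part of these markers in the kinesin values was not tested.

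Of the 39 kinesin genes, 31 reached FPKM 1 in all 3 libraries, compared with 53.0% of all listed genes. These were 12 of the 13 mitotic, all 13 transport and 6 of the 13 other kinesins. The mean FPKM ranged up to 65.1 among mitotic, up to 26.9 among transport and up to 20.4 among other kinesins. The remaining 8 genes were KIF2B of the mitotic class and KIF9, KIF25, KIF21B, KIF12, KIF26B, KIF6 and KIF19 of the other class.

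**Figure D1:**
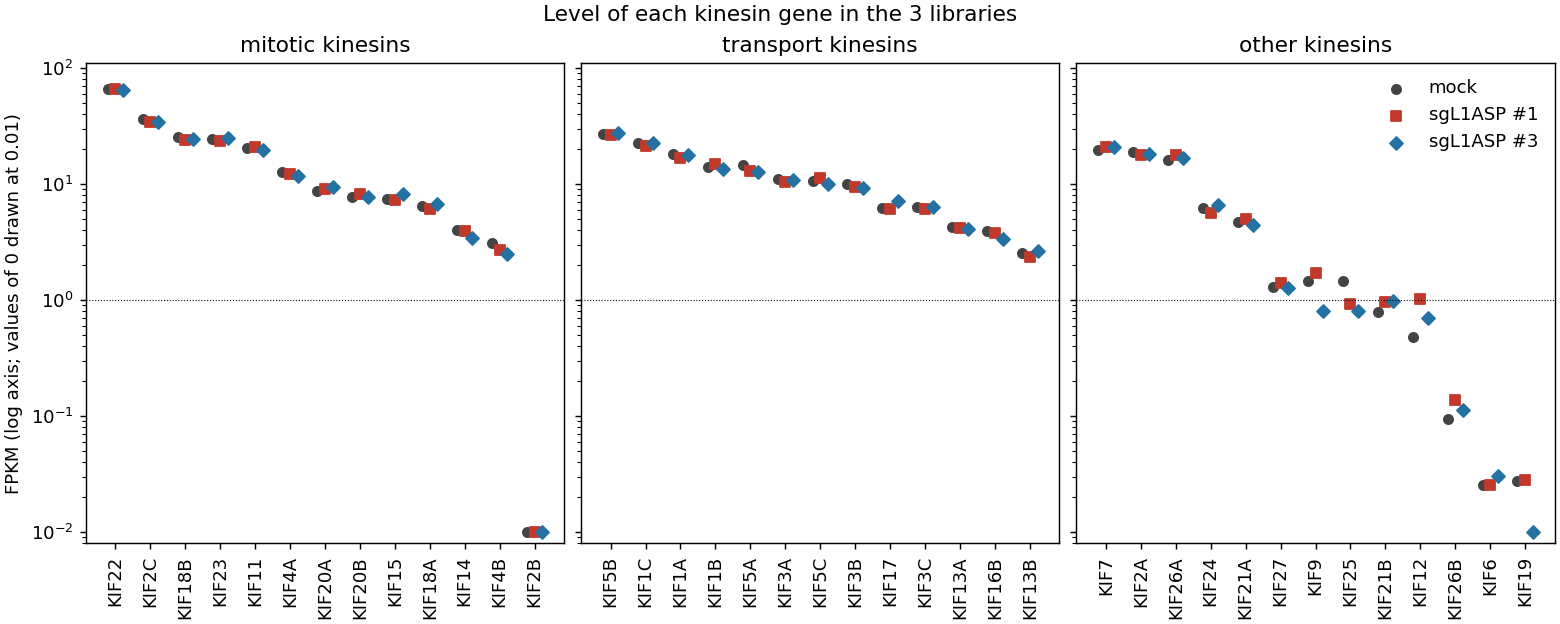
FPKM of the 39 kinesin genes on a log axis in mock (circles), sgL1ASP #1 (squares) and sgL1ASP #3 (diamonds), by class and in order of mean FPKM. The dotted line marks FPKM 1. The symbols of a gene nearly coincide above FPKM 2, while KIF9, KIF25 and KIF12 near FPKM 1 spread apart, and KIF2B is listed at 0 in all libraries.

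KIF22, a chromokinesin that binds chromosome arms, was the most abundant kinesin gene in every library. Its FPKM was 65.9, 65.3 and 64.1 in mock, sgL1ASP #1 and sgL1ASP #3, and the values with the guides lie inside the 95% interval of the mock value, 62.4 to 69.6. KIF22 lies on chromosome 16 of GRCh37 from 29802048 to 29816706. KIF2C, which takes microtubules apart at centromeres, followed with FPKM 36.3, 34.1 and 34.2.

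KIF18B, which acts on the plus ends of astral microtubules, had FPKM 25.5, 23.9 and 24.2. KIF23, the motor of the centralspindlin complex that organises the midzone, had 24.6, 23.3 and 24.8. Their intervals overlapped in each library, so their order was not resolved. KIF11, the motor that pushes spindle poles apart, had FPKM 20.3, 21.0 and 19.8.

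The other expressed mitotic kinesins had mean FPKM between 2.75 and 12.2. KIF4A, a chromokinesin that also works in the midzone, had FPKM 12.7, 12.1 and 11.8. KIF20A, a cytokinesis motor, had 8.72, 9.01 and 9.44. The cytokinesis motor KIF20B had 7.64, 8.18 and 7.79. These 3 genes showed no common direction.

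KIF15, a spindle motor with a role close to that of KIF11, had FPKM 7.48, 7.31 and 8.21. KIF18A, which aligns chromosomes, had 6.40, 6.10 and 6.75. KIF14, a cytokinesis motor, had 3.98, 3.91 and 3.42. KIF15 and KIF18A were highest and KIF14 was lowest in sgL1ASP #3, each with overlapping intervals.

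KIF4B is an intronless copy of KIF4A, annotated with 1 exon, on chromosome 5 of GRCh37 from 154393315 to 154397701. Its FPKM was 3.09, 2.67 and 2.50, in the same order of libraries, which was 0.242, 0.221 and 0.212 of the KIF4A value. The coding sequences of the pair are 95.9% identical, with 152 substitutions and a longest identical run of 151 bases. The 30 coding bases with most substitutions inside one KIF4A exon are shown because they bear on where a read can be placed. They lie at chrX:69573619-69573648 in KIF4A and chr5:154395055-154395084 in KIF4B, both on the plus strand of GRCh37 and at coding positions 1636 to 1665, and capitals mark the bases that differ.
KIF4A: aaTgacaGccaactGcagcccattcagtAC
KIF4B: aaCgacaAccaactAcagcccattcagtTT
Counted from the first coding base of KIF4A, the 5 substitutions are T1638C, G1643A, G1650A, A1664T and C1665T. Across the alignment, 4.30% of windows of 75 bases, the read length, are identical and 45.4% differ by at most 2 bases. How the mapping divided such reads between the pair was not tested, so the FPKM of KIF4B is uncertain.

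KIF2B, a relative of KIF2C, is also annotated with a single exon and was listed at 0 in all 3 libraries.

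KIF5B, the widely expressed heavy chain of conventional kinesin, was the most abundant transport kinesin, and lies on chromosome 10 of GRCh37 from 32297943 to 32345353. Its FPKM was 26.7, 26.2 and 27.6 in mock, sgL1ASP #1 and sgL1ASP #3. KIF1C, a carrier of vesicles and mRNA, had FPKM 22.6, 21.3 and 22.5. KIF1B, which carries mitochondria and synaptic vesicle precursors, had 14.1, 14.8 and 13.4.

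Transport kinesins best known from neurons were also expressed in these cells. KIF1A, an axonal carrier of synaptic vesicle precursors, had FPKM 18.2 (mock), 16.6 (sgL1ASP #1) and 17.9 (sgL1ASP #3). KIF5A, a neuronal heavy chain of conventional kinesin, had 14.7, 12.9 and 12.6. KIF5C, another neuronal heavy chain, had 10.5, 11.2 and 9.89. The 3 heavy chain genes kept the order KIF5B, KIF5A, KIF5C in every library, and KIF5B was clear of KIF5A in each. The intervals of KIF5A and KIF5C were separate in mock and sgL1ASP #3 and met in sgL1ASP #1, where they were 11.97 to 13.8 and 10.4 to 12.001.

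KIF3A and KIF3B, partners in the heterotrimeric kinesin-2 that builds cilia, had similar levels. FPKM of KIF3A was 10.98, 10.4 and 10.9, and that of KIF3B was 10.04, 9.35 and 9.29. KIF3C, the alternative partner of KIF3A, was lower at 6.30, 6.05 and 6.34. KIFAP3, which encodes the subunit that joins this motor to its cargo, had FPKM 8.46, 7.12 and 7.47.

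KIF17, the homodimeric kinesin-2, had FPKM 6.16, 6.05 and 7.13. Of the remaining transport kinesins, which carry endosomes and other membranes, KIF13A had FPKM between 4.09 and 4.22, KIF16B between 3.33 and 3.94 and KIF13B between 2.37 and 2.66. The lowest transport value in any library was thus the 2.37 of KIF13B.

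In the other class, KIF7, a regulator of Hedgehog signalling in cilia, had FPKM 19.6 (mock), 20.7 (sgL1ASP #1) and 20.9 (sgL1ASP #3). KIF2A, which takes microtubules apart at spindle poles and in neurons, had 18.9, 17.9 and 18.1. KIF26A, a kinesin that lacks ATPase activity, had 16.0, 17.8 and 16.7. These 3 genes held between 76.7% and 78.0% of the summed FPKM of their class.

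KIF24, which controls centriole capping, had FPKM 6.26, 5.58 and 6.59. KIF21A, which slows microtubule growth, had 4.71, 4.96 and 4.42, and its relative KIF21B stayed between 0.79 and 0.98. KIF27, a relative of KIF7, had FPKM between 1.26 and 1.41. Of its transcript windows of 75 bases, 17.2% match transcripts of other genes on either strand. The share that matches on the opposite strand alone was not counted. KIF26B was between 0.094 and 0.14. KIF6 had about 2 reads in each library, and KIF19, a motor of motile cilia, had about 1 read in mock and in sgL1ASP #1 and was listed at 0 in sgL1ASP #3.

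Mitotic kinesins were compared with transport kinesins within each library. The summed FPKM of the mitotic class was 223, 217 and 217 in mock, sgL1ASP #1 and sgL1ASP #3, and that of the transport class was 151, 145 and 148. The 95% counting interval of the transport sum was 148.0 to 153.9 in mock and 142.4 to 148.2 with sgL1ASP #1, which met only at their ends. For the mitotic sum it was 217.2 to 228.0 in mock and 211.4 to 222.1 with sgL1ASP #1. Whether a sum changed beyond counting error was not tested. The mitotic sum was 1.47 times the transport sum in mock (95% counting interval 1.43 to 1.52), 1.49 times in sgL1ASP #1 (1.45 to 1.54) and 1.47 times in sgL1ASP #3 (1.42 to 1.52). The ratio differed between the libraries by less than its counting interval. In RNA from a whole culture, fewer cells in mitosis and less RNA per cell cannot be told apart.

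The median gene of the classes differed less than their sums. Over the 12 expressed mitotic kinesins the median FPKM was 10.7, 10.5 and 10.6 in mock, sgL1ASP #1 and sgL1ASP #3, and over the 13 transport kinesins it was 10.5, 10.4 and 9.89. With KIF2B, listed at 0, counted as well, the mitotic median was 8.72, 9.01 and 9.44, below that of the transport class. KIF22 alone held between 29.6% and 30.1% of the mitotic sum, and with KIF2C and its next gene between 56.8% and 57.4%. KIF5B held between 17.7% and 18.7% of the transport sum. Without KIF22 and KIF5B the ratio of the sums was 1.26 in mock and 1.27 with either guide.

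**Figure D2:**
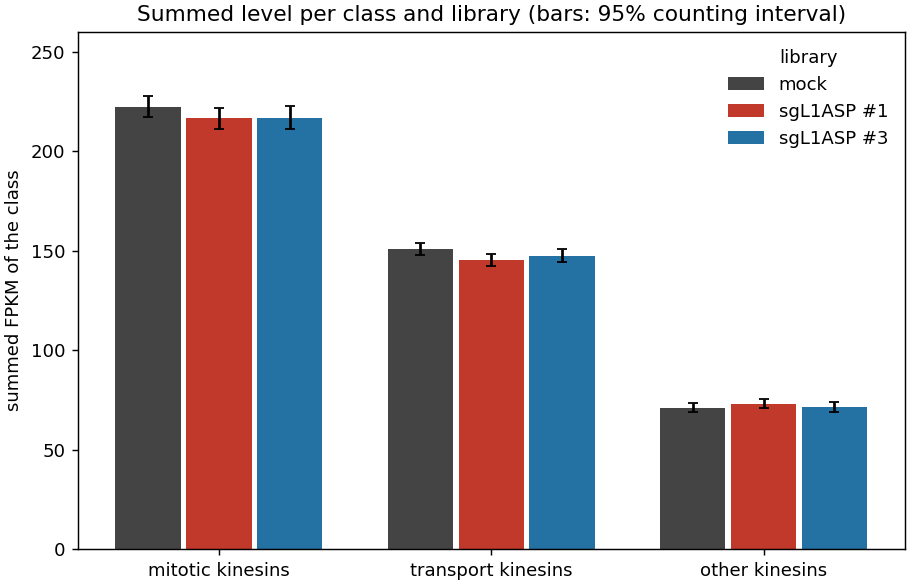
Summed FPKM of the mitotic, transport and other kinesins in each library, with 1 bar per library and error bars for the 95% counting interval. The mitotic bars reach 217 to 223 and the transport bars 145 to 151, and in each of these classes the mock bar is the highest.

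The promoters of both classes were read for short elements, since this feature was not used to choose the genes. The cell cycle genes homology region (CHR), the letters TTTGAA or TTTAAA, is an element through which genes are kept silent outside G2 and mitosis, and the CCAAT box is the binding element of NF-Y. Both strands were searched. RefSeq sequences of GRCh38.p14, from 250 bases before to 50 after the start, were matched for 13 mitotic, 11 transport and 9 other kinesins. KIF13B, KIF19, KIF21B, KIF26B, KIF27 and KIF5A had no entry. Examples from the mitotic class and the only transport promoter with TTTGAA are shown because they display the element in its surroundings. Each is written along the gene's strand with the element in capitals, where TTCAAA is TTTGAA read on the other strand.
KIF23: attggcccgTTTGAAatgcgccag
KIF11: tgtctctttTTCAAAttgaggcgc
KIF4A: cgggacggaTTTGAAacttggcgg
KIF20A: agcgcgtaaTTTAAAatattgtat
KIF15: agcgccaaaTTCAAAtttgcggcc
KIF5B: gcagtaaaaTTTGAAtctgcgacc
These lie on GRCh38.p14 at chr15:69414285-69414308 for KIF23, chr10:92593093-92593116 for KIF11, chrX:70290061-70290084 for KIF4A, chr5:138179062-138179085 for KIF20A and chr3:44761750-44761773 for KIF15, all on the plus strand. The KIF5B sequence lies at chr10:32056551-32056574 on the minus strand.

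TTTGAA on either strand was found in 9 of 13 mitotic promoters, in 1 of 11 transport promoters and in 0 of 9 other promoters. It occurs in 15.4% of all 27305 promoters of the same length and in 9.10% of the 8935 promoters of genes with mean FPKM of at least 1, called expressed here. TTTAAA was found in 4 of 13 mitotic and 1 of 11 transport promoters, against 12.3% of all and 7.24% of expressed promoters, and KIF14 and KIF23 held both forms at separate places. Either form was present in 11 of 13 mitotic promoters, all but those of KIF22 and KIF2B, and in 2 of 11 transport promoters, those of KIF5B and KIF16B, against 24.3% of all and 14.96% of expressed promoters.

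Positions were read as well. The elements shown began 55 bases before the start in KIF23, 41 in KIF20A, 35 in KIF15, 34 in KIF4A and 28 in KIF11, but 140 in KIF5B. TTTAAA also lay far out in both classes, at 211 bases in KIF23, 198 in KIF14 and 241 in KIF16B. Examples were drawn only from elements whose printed surroundings end before the start, which leaves out elements at or after it. Between 60 bases before and 50 after the start, a range chosen after these positions were seen, either form was found in 11 of 13 mitotic, 0 of 11 transport and 0 of 9 other promoters, against 8.39% of all promoters and 4.72% of expressed promoters. KIF4A and KIF4B are copies of each other, so they are not independent examples.

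CCAAT on either strand was found in 10 of 13 mitotic promoters, 3 of 11 transport promoters and 3 of 9 other promoters, against 35.7% of all and 37.3% of expressed promoters. Both CCAAT and a form of the CHR were present in 9 mitotic promoters and in 1 transport promoter, that of KIF5B, against 9.49% of all and 6.22% of expressed promoters. GGGCGG, the GC box, was found in 11 of 13 mitotic, 9 of 11 transport and 9 of 9 other promoters, against 44.6% of all and 71.9% of expressed promoters. These matches are letters in a window and not binding sites, and the abundant KIF22 had a CCAAT but no CHR letters there.

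The guides were then compared with mock over the 33 kinesin genes with mean FPKM of at least 1. With sgL1ASP #1, 10 of the 33 were higher and 23 lower than in mock, against 50.3% higher and 49.6% lower among all 12830 genes with mean FPKM of at least 1. With sgL1ASP #3, 12 were higher and 21 lower, against 50.4% and 49.4%. From sgL1ASP #3 to sgL1ASP #1, 17 were higher and 16 lower, against 49% and 50.9%. Rescaling each library to one FPKM sum, which shifts the median of all genes by -0.092 with sgL1ASP #1 and -0.12 with sgL1ASP #3, made these counts 4 and 29, 2 and 31, and 21 and 12. Among all genes it left 24.96% and 20.8% higher than mock and 56.7% higher between the guides. The comparisons with mock share that library. In size, the median absolute log2 change of the 33 kinesin genes was 0.077 with either guide, compared with 0.094 and 0.095 for all genes. At mean FPKM of at least 5, where genes are better counted, it was 0.076 and 0.074 for 24 kinesin genes and 0.077 and 0.078 for 9481 genes. Of these 24 genes, 7 were higher and 17 lower with sgL1ASP #1, 11 higher and 13 lower with sgL1ASP #3, and 9 higher and 15 lower between the guides, where the majority thus turned. Among the 9481 genes, 51.0%, 51.5% and 48.3% were higher.

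In the mitotic class, 3 genes were higher and 9 lower with sgL1ASP #1, and 5 were higher and 7 lower with sgL1ASP #3. The median log2 change of the 12 mitotic genes was -0.051 ± 0.075 (95% counting interval) with sgL1ASP #1 and -0.038 ± 0.078 with sgL1ASP #3. In the transport class, 2 genes were higher and 11 lower with sgL1ASP #1, and 4 were higher and 9 lower with sgL1ASP #3. The median log2 change of the 13 transport genes was -0.060 ± 0.066 and -0.022 ± 0.068. Across all genes the medians were 0.00085 and 0.0015, and 50.3% and 50.4% were higher. With each library rescaled to one FPKM sum, 1 mitotic gene was higher with either guide. In the transport class 0 were then higher with sgL1ASP #1 and 1 with sgL1ASP #3, against 24.96% and 20.8% of all genes. Each class median lay within its counting interval of 0, which does not cover the class sums given above.

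The median change of the mitotic class minus that of the transport class was 0.0087 ± 0.099 with sgL1ASP #1 and -0.015 ± 0.10 with sgL1ASP #3. Between the guides, from sgL1ASP #3 to sgL1ASP #1, it was 0.071 ± 0.11, from a mitotic median of 0.0090 and a transport median of -0.062. Each of these differences was smaller than its interval. That interval is approximate, since it pools the counting errors of well and poorly counted genes, so no conclusion on the classes is drawn from it.

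**Figure D3:**
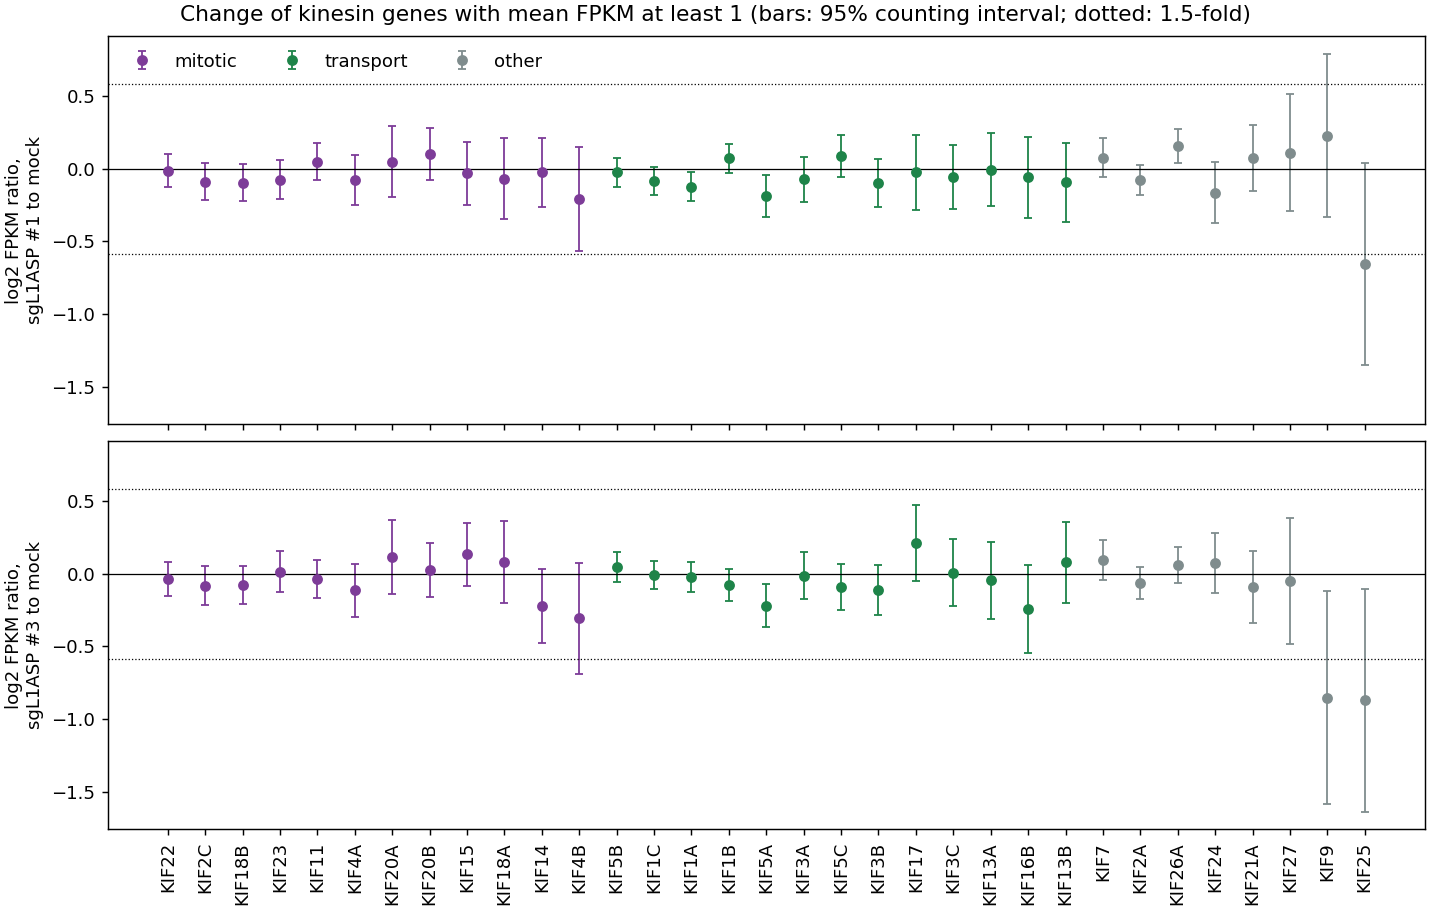
Log2 ratio of FPKM (no pseudocount) of sgL1ASP #1 to mock (upper panel) and of sgL1ASP #3 to mock (lower panel) for the 33 kinesin genes with mean FPKM of at least 1, with 95% counting intervals and dotted lines at 1.5-fold. Mitotic and transport kinesins stay inside the 1.5-fold lines, and KIF25 in both panels and KIF9 in the lower panel lie below the lower line.

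A 1.5-fold threshold was applied to each comparison alone and in both directions. The study used this fold for rises only, and required it both from mock to sgL1ASP #3 and from sgL1ASP #3 to sgL1ASP #1. The counts here are therefore not comparable with those of the study. Past 1.5-fold, log2(FPKM + 0.1) was higher with sgL1ASP #1 for 0 and lower for 1 of the 33 genes, against 1.76% and 1.79% of all genes. With sgL1ASP #3 it was higher for 0 and lower for 2, against 1.75% and 2.05%. From sgL1ASP #3 to sgL1ASP #1 it was higher for 1 and lower for 0, against 1.96% and 1.82%. None of the 25 mitotic and transport kinesins with mean FPKM of at least 1 was past 1.5-fold in any of these 3 comparisons. With a pseudocount of 1, all these counts were 0.

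The genes past 1.5-fold were both of the other class and had few reads. KIF9, a motor of cilia and sperm tails, lies at positions 47269488 to 47324941 of chromosome 3 (GRCh37), and its FPKM was 1.45, 1.70 and 0.80 in mock, sgL1ASP #1 and sgL1ASP #3. These values stand for about 47, 54 and 22 reads. KIF9 was low in sgL1ASP #3 alone, with a log2 change to mock of -0.78 and a counting standard error of 0.37, and the log2 change from sgL1ASP #3 to sgL1ASP #1 was 0.99. An antisense gene, KIF9-AS1, covers 17.1% of its transcript on the opposite strand, and the authors counted by strand.

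KIF25 lies at positions 168396921 to 168445771 of chromosome 6 (GRCh37), and its FPKM was 1.46, 0.93 and 0.80, or about 43, 27 and 20 reads. It was highest in mock. The log2 change was -0.61 with sgL1ASP #1, with a counting standard error of 0.35, and -0.80 with sgL1ASP #3, with a standard error of 0.39. Below the limit of mean FPKM 1, KIF12 had FPKM 0.48, 1.02 and 0.70 from about 10, 21 and 12 reads.

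A change can also be set against the counting interval of each gene, judged on the FPKM ratio without a pseudocount. With sgL1ASP #1, KIF26A was higher, by 0.15 on the log2 scale, and KIF1A and KIF5A were lower, with log2 changes of -0.12 and -0.19. That is 1 of 33 higher and 2 of 33 lower, against 9.1% and 8.1% of 10931 genes with estimated reads and mean FPKM of at least 1. With sgL1ASP #3, 0 were higher and 3 lower, against 8.47% and 7.24%, namely KIF5A with a log2 change of -0.22 and the low genes KIF9 and KIF25. Between the guides KIF1B, KIF5C and KIF9 were higher and KIF24 was lower in sgL1ASP #1, against 7.25% and 7.64%. These shares were near or below those of all genes, and 0 of the 12 mitotic kinesins with mean FPKM of at least 1 left their interval in any comparison. With read numbers from the shortest coding transcript, 1, 0 and 0 of the 33 were past their interval in either direction, against 5.8%, 4.93% and 4.88% of all genes. In simulated libraries with counting error alone, 5.29% of unchanged genes left their interval for sgL1ASP #1 and 5.28% for sgL1ASP #3. Whether the intervals from canonical transcripts are too narrow was not tested.

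Over the 3 libraries, the highest FPKM was at most 1.2 times the lowest for 30 of the 33 kinesin genes with mean FPKM of at least 1, compared with 73.6% of all 12830 such genes. The exceptions were KIF4B at 1.24 times, KIF25 at 1.83 times and KIF9 at 2.11 times. The median of this ratio was 1.08 in the mitotic class, 1.09 in the transport class, 1.12 in the other class and 1.11 over all genes. The smallest was 1.03, for KIF22. The shares within 1.2 times were not matched for level or transcript length. At mean FPKM of at least 5, the median absolute log2 changes to mock were close, 0.076 and 0.074 for kinesin genes and 0.077 and 0.078 for all genes.

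Leaving aside KIF9 and KIF25, which were below FPKM 1 in a library, 31 genes with between 78 and 1816 estimated reads remain. With sgL1ASP #1 the furthest above mock on the log2 scale were KIF26A (0.15) and KIF27 (0.10), and the furthest below KIF4B (-0.20) and KIF5A (-0.19). With sgL1ASP #3 the furthest above were KIF17 (0.21) and KIF15 (0.13), and the furthest below KIF4B (-0.30) and KIF16B (-0.24). Between the guides KIF14 (0.19) and KIF16B (0.18) were furthest above, and KIF24 (-0.24) and KIF17 (-0.23) furthest below, in sgL1ASP #1. Of the 9 genes in this paragraph, KIF5A and KIF26A left their counting interval against mock, and KIF24 between the guides.

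Motors outside the KIF number names and the partners of both classes were followed in the same libraries. KIFC2 and KIFC1, of the minus-end directed kinesin family, of which KIFC1 focuses spindle poles, had FPKM 37.6, 36.0 and 35.5, and 28.2, 26.1 and 27.8. CENPE, the kinetochore kinesin, had FPKM 5.25, 5.52 and 4.56. KIFC3 and STARD9 had mean FPKM 6.39 and 3.93. Past 1.5-fold were 0 of these 5 motors in any comparison, against 1.75% to 2.05% of all genes in each direction.

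Among 10 spindle and midzone partners, BIRC5, a subunit of the chromosomal passenger complex, was highest with FPKM 78.6, 77.9 and 78.4, and the mitotic kinase gene AURKA was lowest with 17.5, 15.9 and 17.4. Their median log2 change was -0.011 with sgL1ASP #1 and 0.0048 with sgL1ASP #3. Among 9 transport partners, the kinesin light chain gene KLC1 was highest with FPKM 35.7, 39.4 and 37.9, and the mitochondrial adaptor gene TRAK2 was lowest with 5.83, 6.22 and 5.998. Their median log2 change was 0.044 and 0.041. None of these 19 partners was past 1.5-fold in any of the 3 comparisons. Of all genes, between 1.75% and 2.05% were past it in each direction, and lists this short would hold few such genes at that share.

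The 10 proliferation genes followed beside them ranged from mean FPKM 18.3 for MKI67, a marker of cycling cells, to 137 for the mitotic ubiquitin-conjugating enzyme gene UBE2C. FPKM of MKI67 was 18.9, 18.3 and 17.7, and that of UBE2C was 132, 141 and 139. Their median log2 change was -0.029 and 0.0036 with sgL1ASP #1 and sgL1ASP #3. Past 1.5-fold were 0 of the 10, against 1.75% to 2.05% of all genes in each direction.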

How the data were processed

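RNA-seq of 3 libraries, 1 per condition, was analysed, with groups taken from the labels. Per the submitters' processing notes and the methods, the authors prepared stranded mRNA libraries, mapped 75-base reads to hg19 (GRCh37) with TopHat2 2.0.13, Bowtie2 2.2.3 and SAMtools 0.1.19, and deposited FPKM per gene from Cuffdiff (Cufflinks 2.2.1). The gene annotation is not given in the sources used here. FPKM were used without rescaling, and log2 changes used a pseudocount of 0.1, which understates changes of low genes. Counting standard errors of single genes, and calls against their intervals, refer to the FPKM ratio without a pseudocount.

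Depth was estimated from the value of a single read in genes with 1 annotated transcript longer than 1000 bases, after taking 200 bases from the length. The estimates rest on 33, 50 and 41 genes at the peak. Reads per gene, and counting error from them, used the canonical GENCODE 44 transcript on GRCh37, so they are approximate. The interval of a median change was taken from the counting errors of its genes, pooled as if equal, and the normal approximation. It covers neither the spread among genes nor that between cultures.

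The members and lists were chosen with earlier results of these data known. Every kinesin gene could be named, and most are given with all 3 values. The rule required this for the 4 most abundant of each class, those past 1.5-fold, the largest differences of each comparison and those listed at 0. From other lists the rule named the highest, the lowest and those past 1.5-fold, and KIFAP3, KIFC1, KIFC3, CENPE, COL1A1 and SYT1 were added after their values were seen. Scripts were tested on simulated data. Python 3.11.15, NumPy 2.4.6, pandas 2.3.3, SciPy 1.17.1, Biopython 1.88 and matplotlib 3.10.9 were used. Pseudocounts, filters, scaling, thresholds and class membership were varied. Guide target sites were not analysed here.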

Additional observations from a re-analysis of the deposited data

How the results depend on the processing

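No paired analysis was possible because there was only 1 library for every condition, and for the same reason no replicate could be left out. Changing the pseudocount, the filter, the scaling, the threshold or the class lists kept 132 of 159 recomputed values within their counting interval or within 1.5 times the count. Some of these could not change, since the setting kept the same genes or altered only the other class. The values outside included the mitotic to transport ratio under each change of class lists given below. Leaving out KIF4B, keeping genes with at least 50 estimated reads and using the shortest coding transcript were added after the data were seen.

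With FPKM summing to 1000000 in each library, the mitotic median went to -0.14 with sgL1ASP #1 and -0.16 with sgL1ASP #3, and the transport median to -0.15 and -0.14. All genes share this shift by construction, and the difference between the classes stayed within its interval. The 1.5-fold counts of 1 lower with sgL1ASP #1, 2 lower with sgL1ASP #3 and 1 higher between the guides became 0 with a pseudocount of 1 and with a 2-fold threshold. They were also 0 with FPKM of at least 1 in every library, which by construction leaves out KIF9 and KIF25, since they were below 1 where they were low. With all members, 1 gene, KIF12, was higher with sgL1ASP #1. Read numbers from the shortest coding transcript left 1, 0 and 0 of the 33 genes past their counting interval in place of 3, 3 and 4, and the share of all genes was 5.8%, 4.93% and 4.88%.

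The mitotic to transport ratio in mock, sgL1ASP #1 and sgL1ASP #3 was 1.60, 1.62 and 1.59 with KIF2A counted as mitotic, 1.42, 1.43 and 1.42 with KIF21A and KIF21B counted as transport, and 1.26, 1.27 and 1.27 without the most abundant member of each class. All of these lay outside the counting interval of the ratio in their library. The nearest was 1.419 in sgL1ASP #3, where the interval began at 1.421. The size of the ratio thus depends on the class lists. At FPKM 0.1 in every library, 10 other kinesins were counted in place of 6. Depth limits the low genes most, since KIF9 and KIF25 rest on 20 to 54 reads per library.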

Other observations

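The elements read in the promoters lay at similar distances in several mitotic kinesins. From the first base of the nearest CCAAT before it (on either strand) to the first base of the CHR element there were 23 bases in KIF14, 24 in KIF4A, 24 in KIF4B, 25 in KIF11 and 26 in KIF20A, 34 in KIF18B and 35 in KIF18A. KIF23 had a spacing of 9 bases and KIF20B, which has a pair of CHR elements, of 122 and 128 bases. KIF4B, the intronless copy, held both elements at the spacing of KIF4A, while its CHR element lay 3 bases after its annotated start and that of KIF4A 34 bases before its own. Spacing was computed for kinesin promoters alone, so how common these distances are was not tested.

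Several kinesin transcripts overlap a gene on the opposite strand. Among protein-coding neighbours, for example, DIMT1 covers 27.2% of the canonical KIF2A transcript, TICRR 8.71% of that of KIF7 and CDC23 2.39% of that of KIF20A. Overlaps on the same strand were found in KIF2A, over 4.16% of the transcript, and in KIF21A, over 1.08%. The authors counted by strand, and what part such overlaps have in the FPKM was not tested.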
